A study of Mus musculus with 24 samples.

Results

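Osr1, Osr2, Shox2, Tbx22, Meox2 and Mn1 are transcriptional regulators that pattern the palatal shelves, the mesenchymal outgrowths of the maxilla that form the secondary palate. They are 6 of the 18193 genes with a probe set of their own on the array. They were chosen by symbol, and each is represented by its brightest probe set, judged by the mean of 24 arrays: 1449350_at for Osr1, 1426155_a_at for Osr2, 1438042_at for Shox2, 1438586_at for Tbx22, 1424234_s_at for Meox2 and 1454867_at for Mn1. All 6 passed the filter on dim genes (above a log2 level of 6.07 on at least 2 arrays) and were tested among 13837 genes.

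Total RNA came from jaws of C57B6 mouse embryos at embryonic day 12.5, dissected into mandible and maxilla and each of these into a proximal and a distal end. Knockout embryos lacked Alk5 (gene symbol Tgfbr1), which encodes a TGF-beta type I receptor, through Wnt1-Cre and floxed Alk5 alleles. Wnt1-Cre acts in the neural crest, so epithelium, muscle, vessels and blood keep the receptor. Controls were littermates of the same cross, and the labels do not give their own alleles. Each of the 4 regions has 2 control arrays and 4 knockout arrays, with replicate numbers. Mutants were recognised by cleft palate and a skull defect, so the phenotype may have helped to choose the knockout samples. The sources used here do not say whether a sample is 1 embryo or a pool, so p-values measure only the spread between these samples.

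The palate grows as a pair of shelves from the maxillary mesenchyme, which derives from the neural crest, and the shelves later lift above the tongue and fuse. Their mesenchyme is regionalised. Shox2 marks the anterior shelf, Tbx22, Meox2 and Mn1 the middle and posterior shelf, and Osr2 is graded across the shelf from its outer to its inner side. Loss of Osr2, Shox2, Tbx22, Meox2 or Mn1 can each cause cleft palate in mice, and mutations of TBX22 cause X-linked cleft palate in people. TGF-beta signalling in the neural crest supports growth of the shelf mesenchyme. Several of the 6 genes act outside the palate too.

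Shown here are the 250 bases before the annotated start of the 3 members with an entry in the RefSeq promoter table (build GRCm38.p6), because the knockout removes a receptor that signals through SMAD proteins. They are written along the strand of the gene, and for Tbx22 the first of 3 entries was taken. Capitals mark CAGAC or its reverse complement GTCTG, the SMAD box, and TATAAA or its reverse complement TTTATA, the TATA box. The marked motifs do not overlap.
Shox2, chr3:66981772-66982021, minus strand: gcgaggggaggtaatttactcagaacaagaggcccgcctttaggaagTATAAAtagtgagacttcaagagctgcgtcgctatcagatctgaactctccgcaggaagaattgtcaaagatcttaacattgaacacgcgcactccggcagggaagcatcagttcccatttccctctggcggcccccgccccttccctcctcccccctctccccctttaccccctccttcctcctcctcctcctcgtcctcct
Meox2, chr12:37108290-37108539, plus strand: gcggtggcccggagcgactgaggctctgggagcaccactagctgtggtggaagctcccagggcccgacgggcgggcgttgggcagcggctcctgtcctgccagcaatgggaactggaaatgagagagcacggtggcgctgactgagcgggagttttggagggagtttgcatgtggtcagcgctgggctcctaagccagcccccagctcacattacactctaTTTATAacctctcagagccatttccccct
Tbx22, chrX:107667714-107667963, plus strand: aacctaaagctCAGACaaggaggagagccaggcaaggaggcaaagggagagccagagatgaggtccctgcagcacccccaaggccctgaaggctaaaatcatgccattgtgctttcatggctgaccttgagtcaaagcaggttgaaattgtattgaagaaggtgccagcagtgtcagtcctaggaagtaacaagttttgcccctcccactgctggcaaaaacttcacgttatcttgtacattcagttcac
The Tbx22 window holds 1 SMAD box and 0 TATA boxes, and the Shox2 and Meox2 windows hold 1 TATA box and 0 SMAD boxes each. Of 32851 promoter windows of the same length, 42.2% hold a SMAD box and 12.4% a TATA box. Such matches are letters, counted at any position in a window and on either strand. They do not show binding or a working TATA box.

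Before the genes are taken in turn, 3 features of the arrays bear on every value. First, knockout arrays numbered 1 and 2 stand apart from those numbered 3 and 4. RNA breakdown, read as 3' minus 5' signal on control probe sets for Gapdh and beta-actin, averaged 1.13 ± 0.28 (log2, SD, n = 8) on knockouts 1 and 2, against 0.18 ± 0.04 (n = 8) on controls and 0.08 ± 0.06 (n = 8) on knockouts 3 and 4. The mean erythroid marker level ranged from 11.91 to 12.87 on knockouts 1 and 2, from 10.41 to 10.74 on controls and from 9.76 to 10.41 on knockouts 3 and 4. The mean signal of hybridisation control probe sets ranged from 11.30 to 12.19 on knockouts 1 and 2, and from 10.09 to 11.07 on controls. On knockouts 3 and 4 it ranged from 9.03 to 9.51, so they also stand apart from the controls. No set of arrays holds both genotypes, so the genotype cannot be told apart from the array set. Results are therefore given for each set. Second, the mandible ends of control number 2 go against their labels. Hand2, which marks the distal mandible, read 10.80 proximally and 12.72 distally in control 1, but 13.05 proximally and 11.49 distally in control 2. The 4 knockouts had 10.46 to 11.60 proximally and 12.38 to 13.11 distally, as control 1 did. Hand2 was singled out after its values were seen. Across 13837 genes, which are not independent replicates, the distal minus proximal difference of control 2 correlated with that of control 1 at r = -0.78 and with those of knockouts 1 to 4 at -0.045, -0.26, -0.77 and -0.64. The difference of control 1 correlated with those of knockouts 1 to 4 at 0.003, 0.18, 0.72 and 0.57, so the order of the ends is clear against knockouts 3 and 4 and weak against knockouts 1 and 2. In the maxilla, the controls correlated at r = -0.35. Values averaged over both ends do not depend on which end is which, and differences from control in single regions are given with and without each control number. Last, all controls were male and 8 knockout arrays were female, and the proximal maxilla of knockouts 1 and 2 had the sexes opposite to the other regions of the same number. Hand2 and Six2 separated the jaws as labelled. Hand2 lay between 10.46 and 13.11 in the mandible and between 5.77 and 8.86 in the maxilla. Six2 lay between 9.22 and 10.89 in the mandible and between 10.96 and 12.27 in the maxilla. The other jaw mesenchyme markers looked at overlapped between the jaws. Barx1, taken as an upper jaw marker, ran from 10.54 to 12.14 in the mandible and from 8.03 to 11.84 in the maxilla. The mean of 4 facial mesenchyme markers was at least 11.39 on all 24 arrays. Its lowest value was in the distal maxilla of control 1, and control 2 had 12.71 there. Skeletal muscle and neuron markers were also present, so whole tissue and not mesenchyme alone was measured.

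Osr2, Shox2 and Osr1 fell in knockouts 1 and 2, by 2.45, 1.58 and 1.44 on the log2 scale, and no member passed the test in knockouts 3 and 4. The difference between these sets was not itself tested. Tbx22 was the member with the clearest difference between the jaws, higher in the maxilla under every replicate number, and Osr1 was lower in the maxilla under every replicate number. Mn1 was lower at the distal than at the proximal end of the mandible in all 4 knockouts, without passing the test over all genes. The 2 Meox2 controls differed by more than the genotypes did. The plot of levels by region shows every value.

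**Figure D1:**
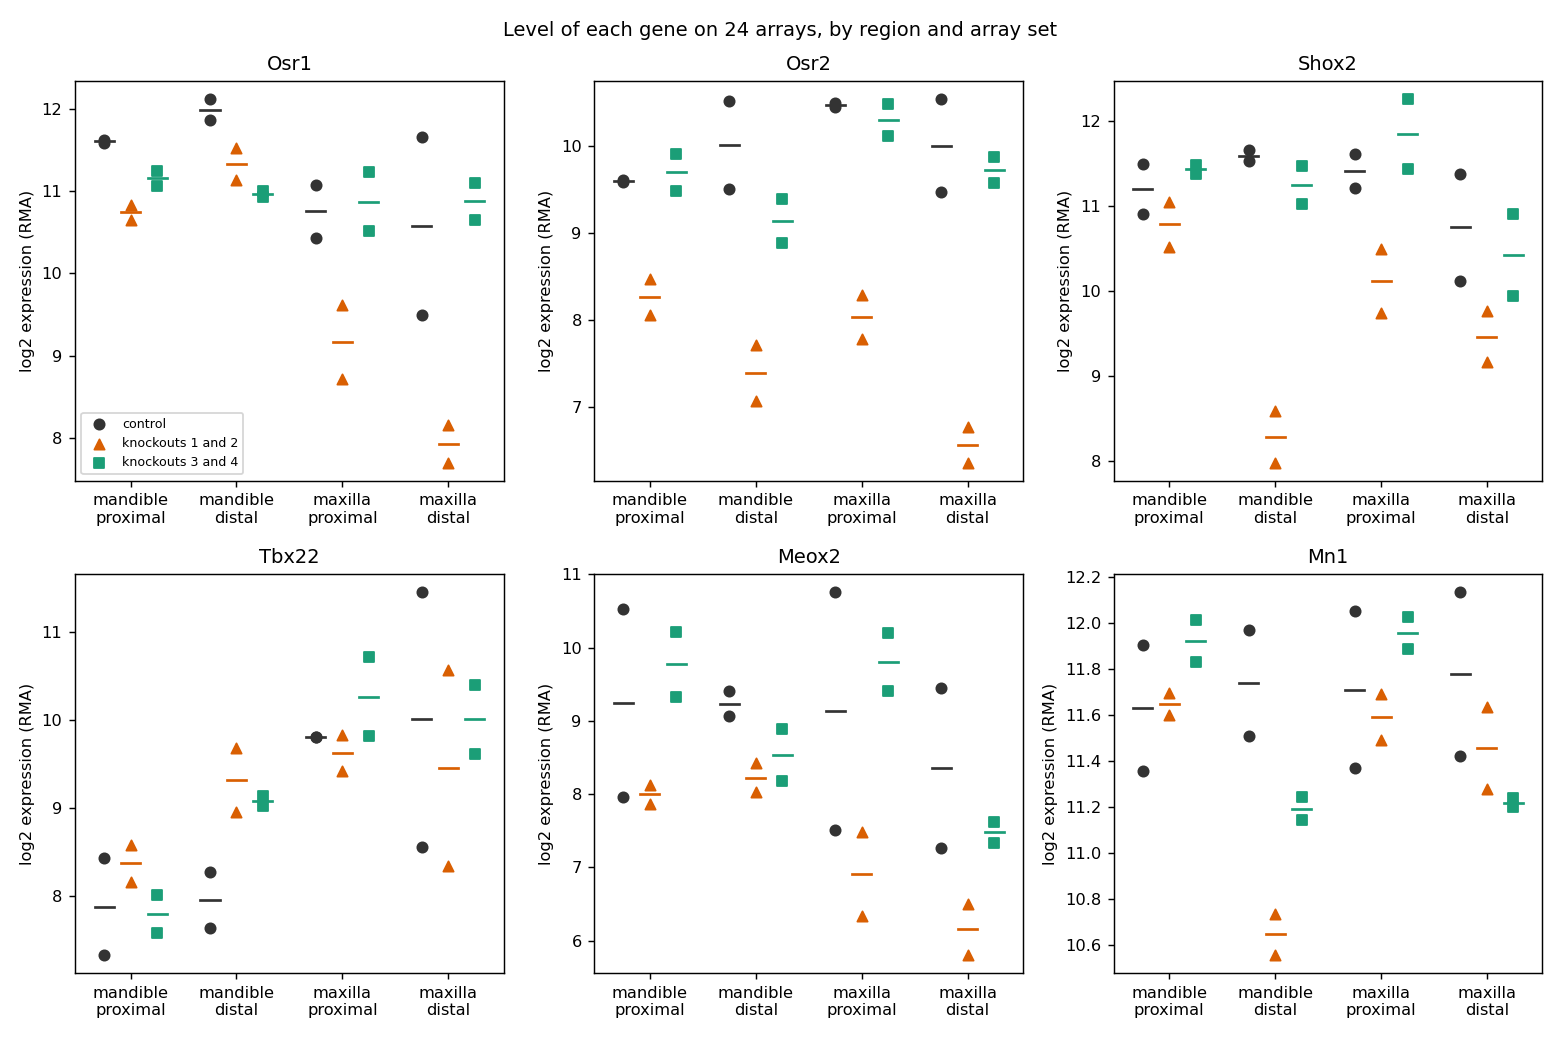
Log2 expression (RMA, vertical axis, a separate scale for each gene) of the 6 genes in the 4 regions (horizontal axis), 1 symbol for each array and a bar at the mean of each set (control n = 2, knockouts 1 and 2 n = 2, knockouts 3 and 4 n = 2). The Osr2 values of knockouts 1 and 2 lie between 6.36 and 8.47, below all control values, and the Meox2 controls of the proximal maxilla span 7.50 to 10.76.

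Osr2 encodes a zinc finger protein of the odd-skipped family that promotes shelf growth and patterns the shelf along its inner to outer axis. In the proximal mandible it read 9.61 and 9.59 in controls 1 and 2, and 8.06, 8.47, 9.48 and 9.91 in knockouts 1 to 4. In the distal mandible the controls had 10.51 and 9.50, and the knockouts 7.71, 7.08, 8.89 and 9.40. Knockouts 1 and 2 are the low samples in both ends, and the distal values of knockouts 3 and 4 lie just below the lower control. In the proximal maxilla the controls had 10.45 and 10.49, and the knockouts 7.79, 8.29, 10.48 and 10.11. In the distal maxilla the controls had 9.47 and 10.54, and the knockouts 6.36, 6.77, 9.58 and 9.88. There too, knockouts 1 and 2 lie below both controls and knockouts 3 and 4 overlap them. The lowest Osr2 level in the series was thus in the distal maxilla of a knockout numbered 1.

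Averaged over the 4 regions, Osr2 stood at 10.01 and 10.03 in the controls, 7.48 and 7.65 in knockouts 1 and 2, and 9.61 and 9.83 in knockouts 3 and 4. The sets do not overlap. Against control, Osr2 fell by 2.45 ± 0.09 in knockouts 1 and 2 (log2, SE, n = 2 against 2, limma adjusted p = 0.001387). In knockouts 3 and 4 its difference was -0.30 ± 0.09 (adjusted p = 0.1397, unadjusted p = 0.02525), with the same direction. Over all 4 knockouts it was -1.38 ± 0.77 (adjusted p = 0.7065). With RNA breakdown as a covariate, the difference in knockouts 1 and 2 was -1.20 ± 0.64 and did not pass (limma adjusted p = 0.9997; 0% of all genes called). This covariate separates the same arrays as the genotype, so that fit cannot tell them apart. The second Osr2 probe set, 1430950_at, lay between 3.89 and 4.81 on all arrays, under the filter level, and reports nothing on the gene. With the mean of both probe sets, the difference in knockouts 1 and 2 was -1.30 ± 0.06, still past the threshold. Among all genes tested, the patterns most like Osr2, after the mean of each array set was taken off, were those of Dpyd (r = 0.79), Agxt (0.74) and Lhx6 (0.72). With the set means left in, r was 0.95, 0.25 and 0.62, so Agxt did not follow Osr2 across the sets. These and the other likenesses below are over 24 arrays that share regions and replicate numbers, and are descriptions.

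Shox2 encodes a homeodomain protein that supports growth of the anterior shelf and patterns the limb and the temporomandibular joint. In the distal mandible it read 11.66 and 11.53 in the controls, and 8.59, 7.98, 11.03 and 11.47 in knockouts 1 to 4. In the proximal mandible the controls had 11.50 and 10.91, and the knockouts 11.05, 10.52, 11.38 and 11.48. The low values of knockouts 1 and 2 are thus at the distal end of the mandible, and at its proximal end the groups overlap. In the proximal maxilla the controls had 11.61 and 11.22, and the knockouts 9.75, 10.49, 12.26 and 11.44. In the distal maxilla the controls had 10.12 and 11.38, and the knockouts 9.17, 9.77, 9.94 and 10.90. Knockouts 1 and 2 lie below both controls in each end of the maxilla, by less than in the distal mandible.

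Averaged over the 4 regions, Shox2 stood at 11.22 and 11.26 in the controls, 9.64 and 9.69 in knockouts 1 and 2, and 11.15 and 11.32 in knockouts 3 and 4. Shox2 fell by 1.58 ± 0.07 in knockouts 1 and 2 (log2, SE, n = 2 against 2, limma adjusted p = 0.001476). In knockouts 3 and 4 its difference was 0.00 ± 0.08 (adjusted p = 0.9792), and their values lie on either side of the controls. The RNA breakdown covariate, which separates the same arrays as the genotype, left a difference of -1.17 ± 0.65 in knockouts 1 and 2. It did not pass (limma adjusted p = 0.9997), and that fit cannot tell covariate and genotype apart. The second Shox2 probe set, 1420559_a_at, moved in the same way in the distal mandible, with 9.91 and 9.59 in the controls and 7.47, 6.33, 9.01 and 9.64 in the knockouts. In the proximal mandible this probe set did not place knockouts 1 and 2 below control (9.32 and 8.90 in the controls, 9.77 and 9.11 in those knockouts). The patterns most like Shox2 were those of Wwtr1 (r = 0.86), Zfhx4 (0.81) and Col20a1 (0.80), with r of 0.93, 0.29 and 0.47 when the set means were left in.

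Osr1, the paralogue of Osr2, is expressed in shelf and jaw mesenchyme and is best known for its role in kidney and heart. Proximal mandible samples read 11.59 and 11.63 in the controls, and 10.65, 10.83, 11.07 and 11.25 in knockouts 1 to 4. Distal mandible samples had 11.87 and 12.12 in the controls, and 11.13, 11.53, 10.93 and 11.00 in the knockouts. All 8 knockout values lie below all 4 control values in the mandible. In the proximal maxilla the controls had 11.08 and 10.43, and the knockouts 8.72, 9.61, 11.24 and 10.51. In the distal maxilla the controls had 9.49 and 11.66, and the knockouts 7.70, 8.15, 10.65 and 11.10. Here knockouts 1 and 2 are low, knockouts 3 and 4 overlap the controls, and the 2 controls of the distal maxilla lie farther apart than any other control pair of this gene.

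Averaged over the 4 regions, Osr1 fell by 1.44 ± 0.22 in knockouts 1 and 2 (log2, SE, n = 2 against 2, limma adjusted p = 0.006878), from 11.01 and 11.46 in the controls to 9.55 and 10.03. Without knockout 1, which leaves 1 knockout mean, the difference was -1.20. In knockouts 3 and 4 (10.97 and 10.97) it was -0.26 ± 0.16 (adjusted p = 0.3585). Over all 4 knockouts it was -0.85 ± 0.46 (adjusted p = 0.7065). With RNA breakdown as a covariate, the estimate for knockouts 1 and 2 turned to 2.38 ± 1.78 (adjusted p = 0.9997), and this covariate separates the same arrays as the genotype. The patterns most like Osr1 were those of Fndc1 (r = 0.93), Pdzrn3 (0.87) and Edaradd (0.87), with r of 0.92, 0.86 and 0.26 when the set means were left in.

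These 3 calls have to be read against the rest of the array. In knockouts 1 and 2, limma called 52.6% of the 13837 genes in either direction and 31.7% as lower, so a call there was common and 3 of 6 members called lower is read against that share. The median difference was -1.51 over the 6 members and -0.06 over all genes tested. In knockouts 3 and 4 limma called 1.56% of genes and 0 members, with 1 member, Osr2, at an unadjusted p under 0.05. That level was common there, with 3713 of all 13837 genes under it. Over all 4 knockouts limma called 0% of genes and 0 members, and 0 members had an unadjusted p under 0.05. The comparisons of the knockout sets share the 2 controls. In whole jaw tissue, fewer cells of a type and less RNA per cell cannot be told apart. Erythroid markers and RNA breakdown moved with knockouts 1 and 2, as given above, and endothelial markers averaged 7.76 to 8.72 there against 8.86 to 9.30 in controls. Their part in the falls of Osr2, Shox2 and Osr1 was not tested.

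**Figure D2:**
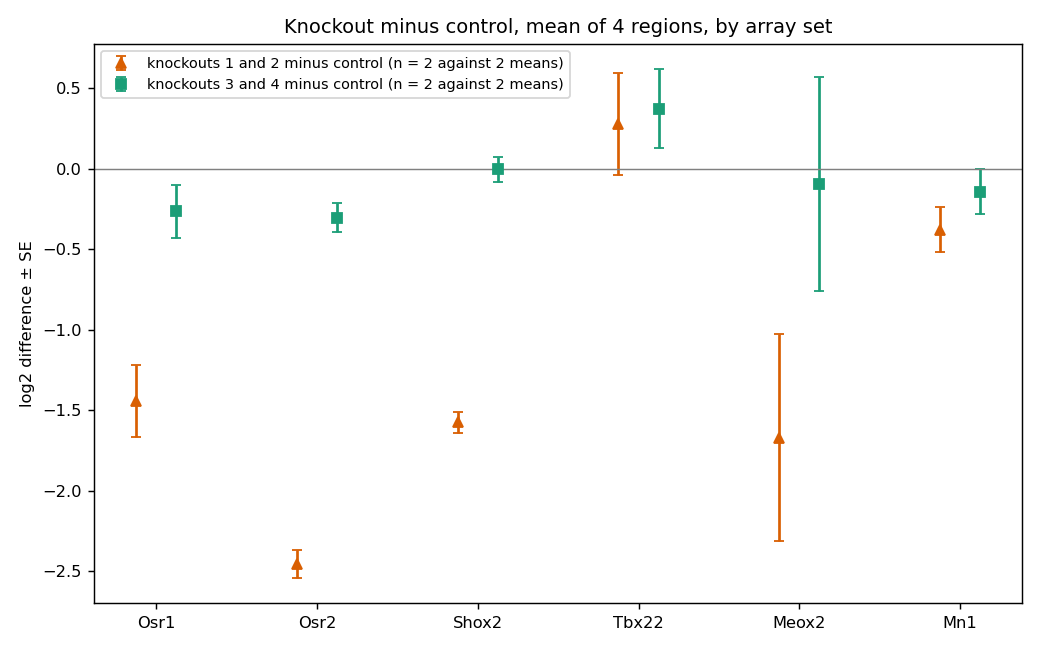
Knockout minus control on the log2 scale (vertical axis) for each gene, averaged over the 4 regions, with the standard error from limma, for knockouts 1 and 2 and for knockouts 3 and 4 (n = 2 means against the same 2 control means). Osr2, Shox2 and Osr1 lie at -2.45, -1.58 and -1.44 in knockouts 1 and 2, and all 6 genes lie between -0.30 and 0.37 in knockouts 3 and 4.

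By region, with all 4 knockouts in a fit of all 24 arrays, 0 members passed in any region. limma called 0% of all genes in the proximal mandible, 0.0145% in the distal mandible, and 0.00723% in each end of the maxilla. At an unadjusted p under 0.05 stood 2 members, both in the distal mandible: Mn1 (-0.82 ± 0.25, adjusted p = 0.3396) and Shox2 (-1.83 ± 0.81, adjusted p = 0.4941). In that region 1364 of all 13837 genes were under the same level. Against knockouts 1 and 2 alone, Osr2 fell in every region. Its difference was -1.33 in the proximal mandible (adjusted p = 0.02845; 31.2% of all genes called), -2.62 in the distal mandible (0.001039; 42.9%), -2.43 in the proximal maxilla (0.004957; 19.9%) and -3.44 in the distal maxilla (0.001952; 25.1%), each ± 0.40 (SE). In the distal mandible Shox2 fell by 3.31 ± 0.43 (adjusted p = 0.0006726), the largest regional difference after that of Osr2 in the distal maxilla. There Mn1 fell by 1.09 ± 0.30 (0.0134). Distally in the maxilla Osr1 fell by 2.65 ± 0.56 (0.0118). Against knockouts 3 and 4 alone, 0 members were called in any region.

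Leaving out 1 control number, an alternative that for knockouts 1 and 2 was added after the data were seen, moved some of these values. It leaves 1 control array in each region, so such fits hold no spread between controls and only differences are given. With all 4 knockouts, Shox2 in the distal mandible differed by -1.89 without control 2 and by -1.76 without control 1. In knockouts 1 and 2 its difference there was -3.37 without control 2 and -3.24 without control 1. Mn1 there differed by -0.86 without control 2 and -1.32 without control 1. Shox2 and Mn1 thus stayed below control in the distal mandible with either control left out. The Osr2 difference in the proximal mandible was -1.34 without control 2 and -1.32 without control 1. In the same order, it was -3.12 and -2.11 in the distal mandible, -2.41 and -2.45 in the proximal maxilla and -2.91 and -3.97 in the distal maxilla. Osr1 in the distal maxilla depended on the control used. Its difference was -1.57 without control 2 and -3.74 without control 1. Without control 2, the differences in the proximal maxilla were -1.92 for Osr1 and -3.85 for Meox2. Those of Meox2 were then -3.30 in the distal maxilla and -2.53 in the proximal mandible. Without control 1, Shox2 differed by -1.91 in the distal maxilla.

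Tbx22 encodes a T-box repressor of the posterior shelf that acts downstream of Mn1. Proximal mandible levels were 7.33 and 8.43 in the controls, and 8.58, 8.16, 7.58 and 8.01 in knockouts 1 to 4. Distally in the mandible the controls had 8.27 and 7.64, and the knockouts 8.96, 9.68, 9.13 and 9.02. At the distal end all 4 knockouts lie above both controls, and at the proximal end the groups overlap. In the proximal maxilla the controls had 9.81 and 9.81, and the knockouts 9.42, 9.83, 10.71 and 9.81. In the distal maxilla the controls had 11.45 and 8.56, and the knockouts 8.34, 10.57, 10.39 and 9.62. The maxillary groups overlap, and the controls of the distal maxilla lie farther apart than the genotype means of this gene in any region. The difference with genotype in the distal mandible was 1.24 ± 0.64 (log2, SE, limma adjusted p = 0.5109), 0.93 without control 2 and 1.56 without control 1. Over the mean of the regions the differences were 0.28 ± 0.32 in knockouts 1 and 2 (adjusted p = 0.4935) and 0.37 ± 0.24 in knockouts 3 and 4 (0.3807).

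Between the jaws, Tbx22 averaged 9.91 ± 1.19 (SD, n = 4) in the maxilla and 7.92 ± 0.52 (n = 4) in the mandible of controls, and 9.84 ± 0.76 (n = 8) and 8.64 ± 0.69 (n = 8) in knockouts. Maxilla exceeded mandible under 6 of 6 replicate numbers, by 2.83 and 1.15 in controls and by 0.11, 1.28, 2.20 and 1.20 in knockouts 1 to 4. The control difference of 1.99 ± 0.52 had limma adjusted p = 0.1827, where 0.181% of all genes were called. The knockout difference of 1.20 ± 0.37 had adjusted p = 0.1131, where 2.36% were called, and 0.04068 when either control number was left out of the fit. The difference between these differences was -0.79 ± 0.64 (adjusted p = 1; 0% of genes called). The patterns most like Tbx22 were those of Fam169a (r = 0.82), Insm1 (0.81) and Cldn11 (0.81).

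Osr1 showed the opposite order of the jaws. It averaged 10.67 ± 0.93 (SD, n = 4) in the maxilla and 11.80 ± 0.25 (n = 4) in the mandible of controls, and 9.71 ± 1.38 (n = 8) and 11.05 ± 0.27 (n = 8) in knockouts. Maxilla minus mandible was below 0 under 6 of 6 replicate numbers, at -1.44 and -0.83 in controls and -2.69, -2.30, -0.05 and -0.32 in knockouts 1 to 4. The size differs between the knockout sets, since knockouts 3 and 4 lie close to 0. The control difference was -1.14 ± 0.66 (limma adjusted p = 1). The knockout difference was -1.34 ± 0.46 (adjusted p = 0.1845), with 0.03855 when RNA breakdown was a covariate. Within knockouts 1 and 2 alone it was -2.49 ± 0.40 (adjusted p = 0.01185; 2.02% of all genes called), and within knockouts 3 and 4 alone -0.19 ± 0.39 (0.9284). Whether the 2 knockout sets differ in this was not tested. For Osr2, Shox2, Meox2 and Mn1 the jaws differed by -0.49 to 0.43 in controls and by -1.05 to 0.20 in knockouts, and limma called 0 members in either genotype. At an unadjusted p under 0.05 stood 1 member in controls, Tbx22, and 2 in knockouts, Tbx22 and Osr1. Of all 13837 genes, 833 were under that level in controls and 1447 in knockouts.

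**Figure D3:**
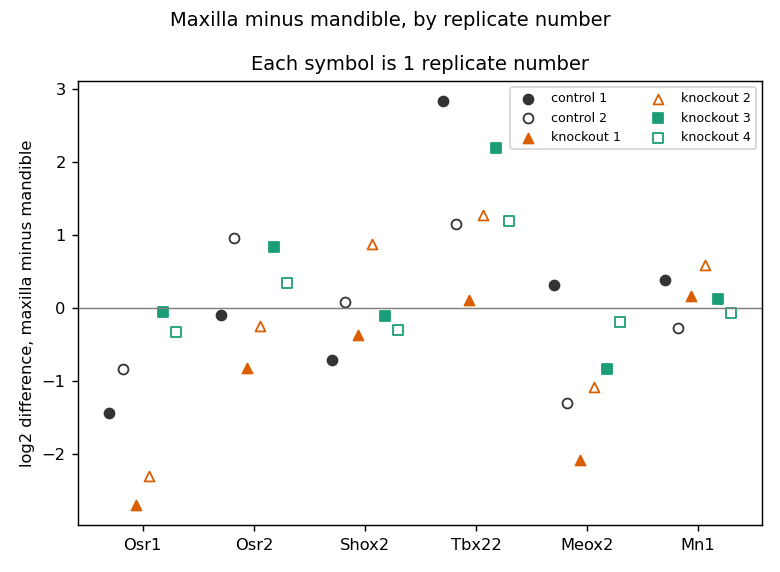
Maxilla minus mandible on the log2 scale (vertical axis), each the mean of both ends, for the 6 genes (horizontal axis). Each symbol is 1 replicate number (2 controls, 4 knockouts). All 6 Tbx22 symbols lie above 0, from 0.11 to 2.83, and all 6 Osr1 symbols below 0, from -2.69 to -0.05.

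Mn1 encodes a transcriptional coregulator needed for growth of the middle and posterior shelf and for Tbx22 expression there. In the distal mandible it read 11.51 and 11.97 in the controls, and 10.74, 10.56, 11.15 and 11.24 in knockouts 1 to 4. In the proximal mandible the controls had 11.91 and 11.36, and the knockouts 11.70, 11.60, 11.83 and 12.02. Every distal knockout value lies below both distal controls and below every proximal value in the mandible. In the proximal maxilla the controls had 12.05 and 11.37, and the knockouts 11.49, 11.69, 12.03 and 11.89. In the distal maxilla the controls had 12.14 and 11.42, and the knockouts 11.28, 11.63, 11.20 and 11.24. The maxillary groups overlap, with 3 of 4 distal knockouts below both controls. Mn1 had the smallest spread of the 6 genes, with an SD of 0.41 over 24 arrays.

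Distal minus proximal in the knockout mandible, Mn1 differed by -0.87 ± 0.21 (log2, SE, n = 4 against 4, limma unadjusted p = 0.0005334, adjusted p = 0.18, where 0.0578% of all genes were called). The sign was the same under 4 of 4 numbers, with -0.96, -1.04, -0.69 and -0.77. Control 1 had -0.40 and control 2 had 0.61, so the controls, whose ends disagree, give no direction. In the distal mandible the genotype difference was -0.59 without control 2 and -1.05 without control 1. Over the mean of the regions, Mn1 differed by -0.38 ± 0.14 in knockouts 1 and 2 (adjusted p = 0.07685). It passed there with each array centred on its median (-0.46 ± 0.13, limma adjusted p = 0.03577). The difference was -0.57 without control 2 and -0.19 without control 1, each with 1 control mean left. The patterns most like Mn1 were those of Atp2b1 (r = 0.91), Phlda1 (0.90) and Lox (0.87).

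Shox2 also separated the ends of the mandible, in knockouts 1 and 2 alone. Distal minus proximal was -2.46 and -2.54 in knockouts 1 and 2, -0.36 and -0.01 in knockouts 3 and 4, and 0.16 and 0.62 in controls 1 and 2. Within knockouts 1 and 2 the difference was -2.50 ± 0.43 (limma adjusted p = 0.04554), where 0.332% of all genes were called. Over all 4 knockouts it was -1.34 ± 0.66 (adjusted p = 0.9998). Tbx22 was higher distally in the mandible of all 4 knockouts, by 0.37, 1.52, 1.55 and 1.01, and the mean difference of 1.11 ± 0.52 did not pass (adjusted p = 0.9998). Osr2 was lower distally in the mandible of all 4 knockouts, by -0.35 to -1.40, also without passing (adjusted p = 0.9998).

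In the knockout maxilla all 6 members averaged lower at the distal end, from -0.22 ± 0.52 for Tbx22 to -1.54 ± 0.85 for Meox2, with 0 members and 0.00723% of all genes called by limma. The same sign was seen under 4 of 4 numbers for Osr2, Shox2, Meox2 and Mn1, and under 3 of 4 for Osr1 and Tbx22. Of these, Mn1 (-0.44 ± 0.21) had an unadjusted p of 0.04848, where 374 of all 13837 genes were under 0.05. In the controls 0% of genes were called between the ends of either jaw, and 0 members had an unadjusted p under 0.05. For Osr1 the 2 controls ran in opposite directions in the maxilla, at -1.59 and 1.23, and for Tbx22 at 1.64 and -1.25. For Meox2 they did so in the mandible, at -1.47 and 1.44. The test of knockout against control for the end difference in the maxilla called 0% of genes and 0 members.

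**Figure D4:**
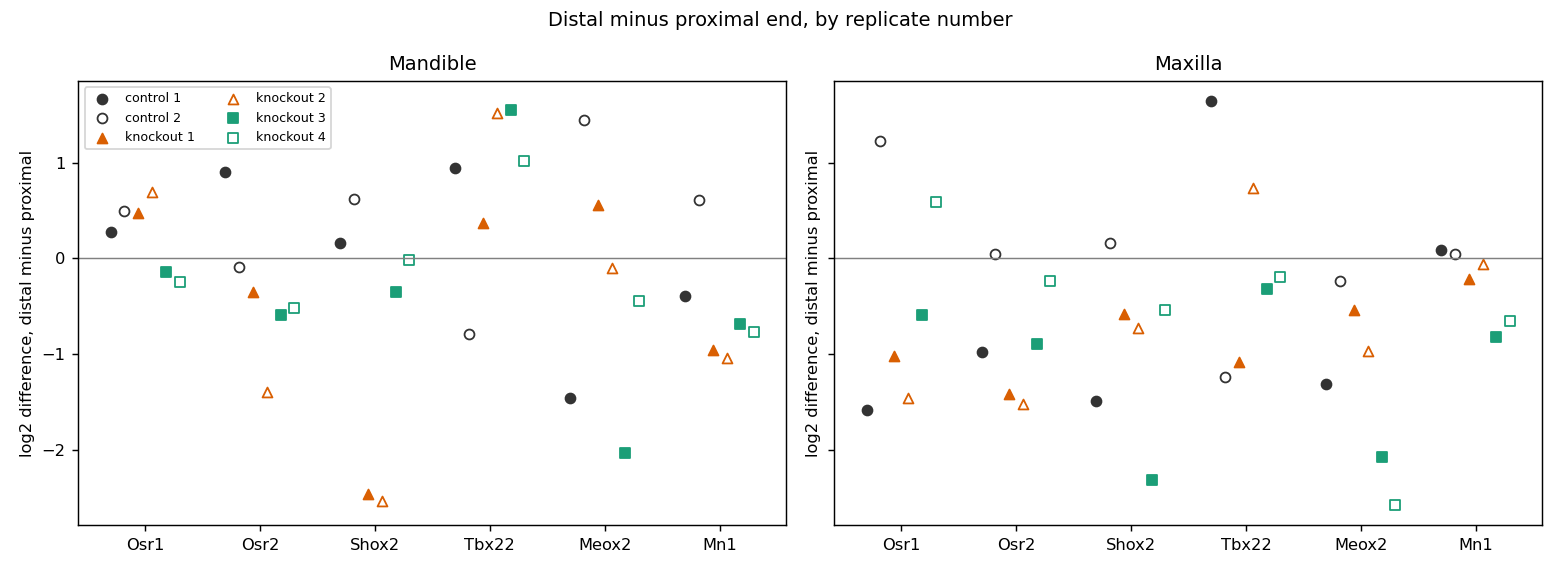
Distal minus proximal on the log2 scale (vertical axis) in the mandible and in the maxilla for the 6 genes (horizontal axis). Each symbol is 1 replicate number (2 controls, 4 knockouts). Mn1 lies below 0 in all 4 knockouts in both jaws, and Shox2 lies at -2.46 and -2.54 in the mandible of knockouts 1 and 2. The mandible ends of control 2 go against their labels.

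Meox2 encodes a homeodomain protein of the posterior shelf that also acts in muscle precursors and vessels. In the proximal maxilla it read 10.76 and 7.50 in the controls, and 6.34, 7.48, 9.41 and 10.20 in knockouts 1 to 4. In the distal maxilla the controls had 9.45 and 7.27, and the knockouts 5.80, 6.51, 7.33 and 7.63. Control 1 is the high control in both ends, and knockouts 1 and 2 lie below both controls. The proximal mandible had 10.53 and 7.97 in the controls, and 7.87, 8.13, 10.22 and 9.33 in the knockouts. The distal mandible had 9.06 and 9.41 in the controls, and 8.43, 8.02, 8.18 and 8.89 in the knockouts. Only in the distal mandible do all 4 knockouts lie below both controls. The difference there was -0.86 ± 1.05 (log2, SE, limma adjusted p = 0.7198), with -0.68 without control 2 and -1.03 without control 1.

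Averaged over the 4 regions, Meox2 stood at 9.95 and 8.04 in the controls, 7.11 and 7.53 in knockouts 1 and 2, and 8.78 and 9.01 in knockouts 3 and 4. The difference was -1.67 ± 0.64 in knockouts 1 and 2 (limma adjusted p = 0.08663) and -0.10 ± 0.67 in knockouts 3 and 4 (0.9367). The gap between the 2 controls decides these values. For knockouts 1 and 2 the difference was -2.63 without control 2 and -0.72 without control 1. For knockouts 3 and 4 it was -1.05 without control 2 and turned to 0.86 without control 1. With 1 control mean left, such fits hold no spread between controls, so only differences are given. The second Meox2 probe set, 1424233_at, was dimmer and ordered the sets alike, with medians of 7.71 in control, 5.91 in knockouts 1 and 2 and 7.47 in knockouts 3 and 4. The patterns most like Meox2 were those of Col25a1 (r = 0.91), Ppp3cb (0.90) and Rbfox1 (0.89), with r of 0.91, 0.14 and 0.86 when the set means were left in.

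Skeletal muscle markers moved with Meox2 on many arrays. The mean of the 6 markers Myod1, Myog, Myf5, Myh3, Actc1 and Des was 10.73 in control 1 and 5.87 in control 2 of the proximal maxilla, and 8.96 and 6.15 in the distal maxilla. In the proximal mandible it was 11.19 in control 1 and 9.24 in control 2, and in the distal mandible 9.90 and 10.79. In each region the control with more muscle signal had more Meox2. In the knockout maxilla the muscle mean was 7.38, 8.75, 6.01 and 10.07 at the proximal end of knockouts 1 to 4, and 6.01, 7.65, 5.53 and 7.67 at the distal end. The knockouts did not keep this order throughout. In the proximal maxilla, knockout 3 had a muscle mean of 6.01 beside a Meox2 level of 9.41, and knockout 2 had 8.75 beside 7.48. In the knockout mandible the muscle mean ranged from 9.66 to 10.94. The part of muscle in the Meox2 differences was not tested.

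**Figure D5:**
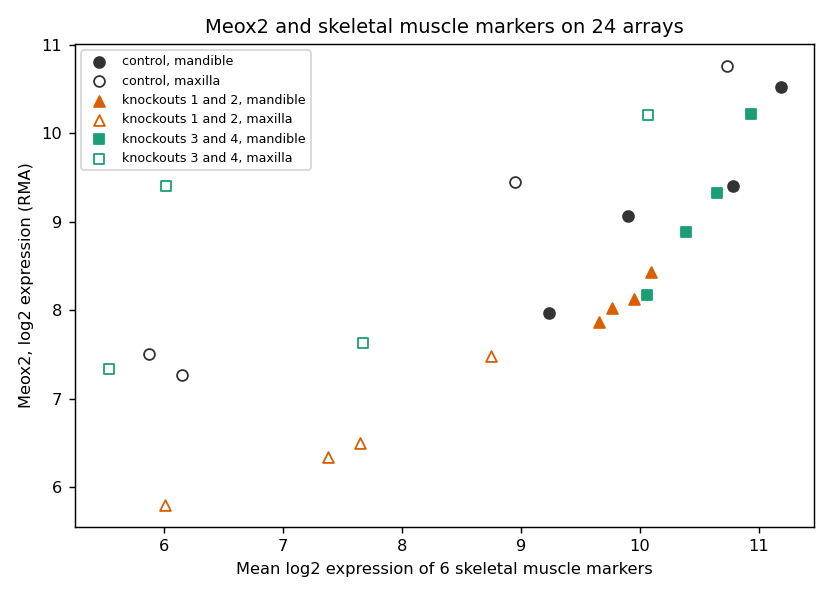
Meox2 log2 expression (RMA, vertical axis) against the mean log2 expression of 6 skeletal muscle markers (horizontal axis) on 24 arrays. Symbols mark the array set, filled for mandible and open for maxilla. The control arrays of the proximal maxilla lie far apart on both axes, at 10.73 and 10.76 for control 1 and at 5.87 and 7.50 for control 2.

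Among themselves the 6 genes did not move as a block once the mean of each array set was taken off. Over the 24 arrays the highest correlations between members were those of Shox2 with Mn1 (r = 0.64) and with Osr2 (r = 0.55). The lowest was that of Osr1 with Tbx22 (r = -0.44), the pair with opposite orders of the jaws. Osr1 and its paralogue Osr2 correlated at r = 0.37. Mn1 and Tbx22, which act in sequence in the posterior shelf, correlated at r = 0.03. These are descriptions over arrays that share regions and replicate numbers.

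Other genes of palate development were taken from 3 lists, with 53 genes tested. Over all 4 knockouts limma called 0 of 53, with 7 at an unadjusted p under 0.05, where 965 of all 13837 genes were under it. In knockouts 3 and 4 it also called 0, with 11 under that level, where 3713 of all 13837 genes were. In knockouts 1 and 2 it called 5 higher and 20 lower, with a median difference of -0.38, again where 52.6% of all genes were called. Among growth signals, 1 of 15 rose and 6 fell. Gli1, a readout of Hedgehog signalling, rose by 0.84 ± 0.17, while the mesenchymal growth factor gene Fgf7 fell by 1.49 ± 0.16 and Inhba, which encodes the activin A subunit, fell by 1.49 ± 0.21. Among transcription factors of the shelf mesenchyme, 2 of 23 rose and 6 fell, with Foxd1 at 1.08 ± 0.17, Sox11 at 0.86 ± 0.10 and Hic1 at -1.46 ± 0.24. Among TGF-beta and fusion genes, 2 of 15 rose and 8 fell. Chd7, a chromatin remodeller mutated in CHARGE syndrome, rose by 2.21 ± 0.18, and Ptx3, a secreted pentraxin, fell by 2.06 ± 0.21.

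Between the jaws of controls, 1 of the 53 was called, Hand2 with a maxilla minus mandible difference of -4.08 ± 0.65, where 0.181% of all genes were called. In knockouts 7 of the 53 were called, where 2.36% of all genes were. Of these, 3 were higher in the maxilla, the frontonasal homeobox gene Alx1 (3.69 ± 0.76), Prrx2 (1.01 ± 0.23) and Snai1 (0.84 ± 0.20). Lower there were 4 genes, Hand2 (-4.33 ± 0.46), Fgf7 (-1.77 ± 0.43), Hic1 (-1.46 ± 0.36) and Barx1 (-1.27 ± 0.30). Between the ends and in single regions 0 of the 53 were called in the comparisons with all 4 knockouts, with 0 to 10 at an unadjusted p under 0.05. Of all 13837 genes, 8 to 1364 were under that level in these comparisons. The count of 10 was between the mandible ends of knockouts, where 582 of all genes were under it.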

How the data were processed

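Expression arrays (Mouse430_2) were read for 24 samples, with 2 control and 4 knockout arrays in each of 4 jaw regions, grouped by the labels. The deposited values are log2 expression for each of 45101 probe sets, which per the submitters' processing notes come from RMA. Its version is not given in the sources used here, nor whether 1 RMA run covered every array. Gene names came from the platform annotation (34945 probe sets with 1 symbol, 932 with several and 9160 with none). The brightest probe set stood for each of 18193 genes. Genes above the 40th percentile (log2 of 6.07) on at least 2 arrays were tested, 13837 in all.

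limma 3.58.1 in R 4.3.3 (lmFit, eBayes without trend, 2-sided, Benjamini-Hochberg over all 13837 genes, threshold 0.05) gave every p-value. Genotype over all regions was fitted on means of the 4 regions by replicate number, and regions, jaws and ends as contrasts of 1 fit of 24 arrays. In comparisons of 1 array set, only that set and the controls were fitted. The script was tested on simulated data. The 6 members, the gene lists, the array sets and the tests were chosen with earlier results of these data known. The rule named the 6 members, and of the other palate genes up to 4 called in each direction. For each member it also named the 3 genes with the highest correlation within array sets. The number of arrays limits the precision. Replicate numbers were not shown to pair the regions of 1 embryo or pool, so no result above rests on a replicate block.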

Additional observations from a re-analysis of the deposited data

Results flagged for a closer look

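Distal minus proximal for Shox2 in the mandible was below 0 in 4 of 4 knockouts (-2.46, -2.54, -0.36 and -0.01). It was above 0 in both controls (0.16 and 0.62). The large differences are those of knockouts 1 and 2, the set with more RNA breakdown, and knockout 4 lay at -0.01. The mean of the knockouts minus that of the controls was -1.73. This difference between genotypes was not tested, and it rests on controls whose mandible ends run in opposite directions over all genes. Mn1 in the maxilla had the same split of signs. Distal minus proximal was -0.22, -0.06, -0.82 and -0.65 in knockouts 1 to 4, and 0.08 and 0.05 in controls 1 and 2. There the difference between genotypes was tested, and at -0.50 ± 0.36 (log2, SE) it did not pass (limma unadjusted p = 0.176, adjusted p = 1).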

How the results depend on the processing

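The 3 calls in knockouts 1 and 2 (Osr2, Shox2 and Osr1) kept their direction and stayed past the threshold under median centring, quantile normalization, no filter, the mean of all probe sets, and limma with trend and robust settings. With RNA breakdown (3' minus 5' signal) as a covariate, 0 members were called there and the Osr1 estimate reversed to 2.38. In that comparison the covariate separates the same arrays as the genotype, so the fit cannot tell them apart. Leaving out 1 replicate number gave 2 to 5 members in knockouts 1 and 2, 0 to 1 in knockouts 3 and 4 and 0 to 1 between the jaws of knockouts, against 3, 0 and 0 with all numbers. Of all genes, 3.14% were called between the knockout jaws without either control. Leaving out 1 number gave 0 members in the other 12 comparisons. Over all 4 knockouts, pairing by number (the replicate block) keeps only numbers 1 and 2 and called 3 members where 46.2% of all genes were called, and the RNA covariate called 1, Osr2 (-0.51, adjusted p = 0.01918), where 4.91% were. With only knockouts 1 and 2, 1 and 3 members were called in the proximal and distal mandible, 1 and 2 in the proximal and distal maxilla, 1 between the jaws and 1 between the mandible ends. With only knockouts 1 and 2 and 1 control number, 1 control array is left in each region, so no calls are given. The RNA covariate called 1 between the knockout jaws, Osr1, where 5.98% of all genes were called. A replicate block with the control distal mandible numbers exchanged, added after the data were seen, called 1 between the mandible ends of knockouts, where 1.01% of all genes were called. The replicate block changed no other call. Deviations of same-numbered regions from the group mean correlated at 0.378 to 0.83 in knockouts and at -0.681 to 0.584 in controls. The knockout values hold the gap between the array sets: the difference of number 1 from 2 correlated between regions at -0.312 to 0.216, and that of 3 from 4 at 0.066 to 0.349. Knockout numbers 1 and 2 also mix the sexes, so the samples may share no more than a number. Knockouts 3 and 4 share no number with a control, so no such fit was made for them. Except where said, the cause was not tested. With 2 controls for each region, whose ends disagree in the mandible, and with array set and genotype confounded, the precision is limited.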
